A study of Mus musculus with 27 samples.

Results

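The vomeronasal receptors are the pheromone receptors of the vomeronasal organ, a separate sense organ at the base of the nasal septum. They were chosen by name, as array gene symbols that start with V1r, V2r, Vmn1r or Vmn2r. This gave 89 genes of 16675 with a symbol on the array, read by 100 probes, and for a gene with several probes the probe with the highest mean stood for it. Of these, 83 belong to the V1R family and 6 to the V2R family. A RefSeq gene table lists 645 symbols starting with Vmn1r or Vmn2r, pseudogenes included, so the genes chosen are a small part of these. Receptors under other names, or among the 8902 probes without a symbol, would not be counted.

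V1R and V2R genes encode G protein-coupled receptors of unrelated families. V1R receptors sit in the apical vomeronasal neurons with the G protein subunit Gnai2, have a short extracellular part and detect mostly small molecules such as steroids. V2R receptors sit in the basal neurons with the subunit Gnao1, have a long extracellular part and detect mostly peptides and proteins. Both kinds of neuron depend on the ion channel Trpc2, and a V1R neuron uses largely a single receptor gene, while a basal neuron pairs its V2R with a member of the small V2R family C. The main olfactory mucosa, the tissue used here, relies on the separate olfactory receptor family.

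Mucosa came from 25-day-old female mice of the FVB strain. The occluded group is mucosa behind a nostril closed by cautery, and the open group is mucosa from the ventilated side of the same individuals. The normal group is mucosa from other mice, which received a sham cautery. Each group has 3 biological replicates with 3 arrays each, 27 arrays in all. The sources used here do not say how many mice went into a replicate. Markers of mature olfactory neurons read brightly in this tissue. Their 9 measured genes had a median intensity of 22128, against 368 for all named genes, and Omp was saturated on 26 arrays. All 9 were also above noise on 27 of 27 arrays. This alone says little about the tissue, since 80.9% of named genes were too. The precision is limited by the number of arrays and mice.

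Receptors of 1 subfamily resemble each other, which is shown here by the first 50 coding bases of members with near relatives on the array. These bases could be read for 55 members, those of the 72 with a RefSeq window whose annotated start coincides with a start codon. Over these 50 bases, pairs within a subfamily were identical at a median of 78% of positions (178 pairs), against 32% for all other pairs (1307 pairs). The V2R members counted as 1 subfamily here. Most of the pairs within a subfamily came from V1rc, so the median is largely a figure for V1rc. All 8 pairs that shared 90% or more lay within a subfamily. The 4 sets printed here were chosen, after the values were seen, as close coding starts whose probes were above noise on unequal (the first 3 sets) or similar numbers of arrays. Capitals mark the positions that differ within a set, sequences run 5′ to 3′ and are from RefSeq, and coordinates are those of GRCm38.p6.
V1rc20 (Vmn1r6, chr6:57002355-57002404, plus strand): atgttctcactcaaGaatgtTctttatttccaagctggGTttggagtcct
V1rc33 (Vmn1r27, chr6:58215968-58216017, minus strand): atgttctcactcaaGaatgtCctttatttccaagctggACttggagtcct
V1rc21 (Vmn1r4, chr6:56956513-56956562, plus strand): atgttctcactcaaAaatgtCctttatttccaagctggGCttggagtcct
V1rc25 (Vmn1r28, chr6:58265174-58265223, plus strand): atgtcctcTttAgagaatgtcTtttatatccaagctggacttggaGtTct
V1rc27 (Vmn1r19, chr6:57404464-57404513, plus strand): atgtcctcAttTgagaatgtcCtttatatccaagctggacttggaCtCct
V1rh13 (Vmn1r219, chr13:23162643-23162692, plus strand): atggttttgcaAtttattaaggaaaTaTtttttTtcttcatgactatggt
V1rh14 (Vmn1r217, chr13:23114681-23114730, minus strand): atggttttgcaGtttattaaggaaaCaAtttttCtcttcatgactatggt
V1rb1 (Vmn1r50, chr6:90107275-90107324, plus strand): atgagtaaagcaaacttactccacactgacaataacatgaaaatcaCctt
V1rb2 (Vmn1r49, chr6:90072969-90073018, minus strand): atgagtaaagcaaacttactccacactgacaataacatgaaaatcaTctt

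The probe of V1rc20 was above noise on 27 of 27 arrays, that of V1rc33 on 21 and that of V1rc21 on 2, although V1rc33 and V1rc21 share 96% of these bases. V1rc25 was above noise on 27 arrays and V1rc27 on 0, with 90% of the bases shared. V1rh13 was above noise on 27 arrays and V1rh14 on 9, with 92% shared. V1rb1 and V1rb2, which share 98%, were above noise on 13 and 10 arrays. The sets were picked for these readings, so they are examples and no rule. The other 2 pairs that share 90% or more read alike, V1rc8 and V1rc9 (98%) on 12 and 14 arrays and V1ri2 and V1ri3 (90%) on 27 arrays each. The probes' own sequences were not used here, and a probe can read related receptors, so the reading of each member is uncertain.

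Whether a member could be measured at all was judged against the noise of each array. From the values an array gave below 0, the root mean square was taken, and 3 times this figure was the noise limit. It lay between 11.6 and 24.1 intensity units, where an array's median probe read between 123 and 274. Of the 89 vomeronasal receptors, 30 (33.7%) exceeded it on 27 of 27 arrays, 53 on some arrays and 6 (6.74%) on none. Over all 29922 probes, 71.6% exceeded it on every array and 1.88% on none. With 1 probe for each of the 16675 named genes, as for the members, the shares were 80.9% and 1.13%. The 689 olfactory receptors, also with 1 probe each, lay between, at 72.9% and 1.89%. V1R and V2R members had near-equal shares above noise on every array, 33.7% (28 of 83) and 33.3% (2 of 6).

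**Figure D1:**
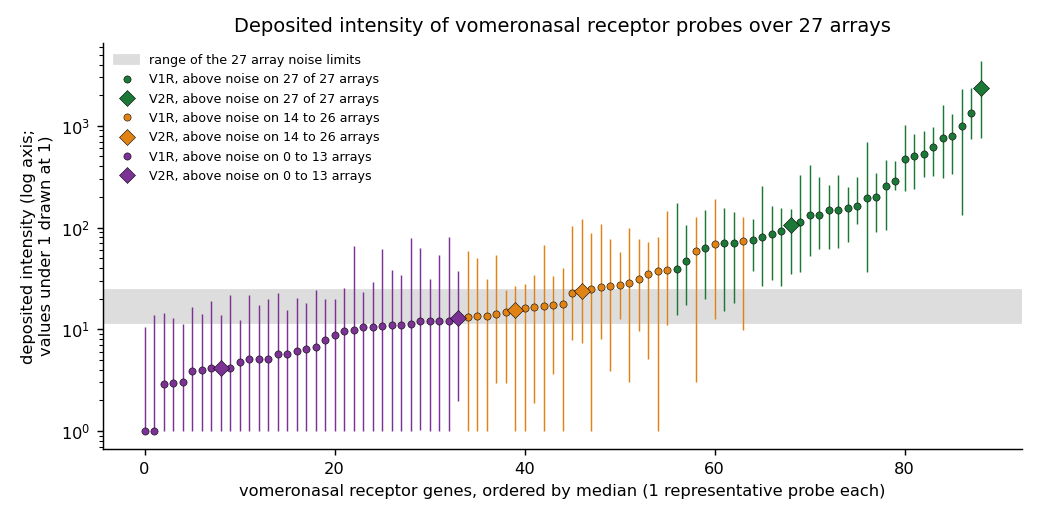
Each of the 89 vomeronasal receptors is drawn at its median deposited intensity over 27 arrays (log axis), with a line from its lowest to its highest array. Circles are V1R and diamonds V2R members, and the grey band spans the array noise limits of 11.6 to 24.1. The 30 members above noise on 27 arrays lie toward the right, with some members above noise on fewer arrays, such as V1re12, among them.

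Probes of genes known for other organs also read above noise. Of 39 measured genes known for organs outside the nose, such as the sperm protamine Prm1, the milk protein gene Csn2 and the pituitary hormone gene Prl, 24 (61.5%) were above noise on every array. Their probes had a median intensity of 72.4, and those of the vomeronasal receptors one of 17.9. No difference between these sets was tested, and how strongly a probe reads depends on the probe as well as the transcript.

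**Figure D2:**
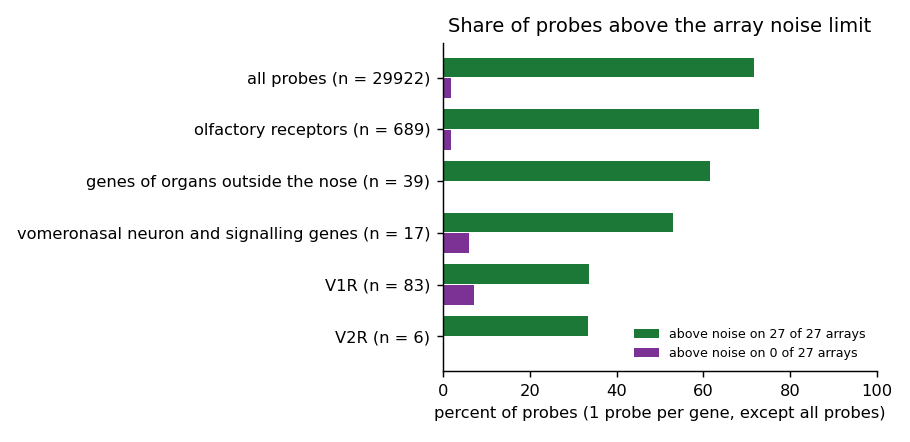
Bars give the percent of probes above the array noise limit on 27 of 27 arrays (green) and on 0 of 27 (purple), with 1 probe per gene except for all probes. V1R (33.7%) and V2R (33.3%) have shorter green bars than all probes (71.6%), olfactory receptors (72.9%) and genes of organs outside the nose (61.5%).

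The V1R subfamilies, named by the letter after V1r, are given by how many members were read. In V1ri 4 of 5 members were above noise on every array, in V1rf 3 of 5 and in V1rd 6 of 12. In V1rc, the largest subfamily on the array, 3 of 19 were, and in V1rb 0 of 4. The only measured members of V1rk and V1rl were both above noise on every array. The 6 members that never exceeded noise were V1ra1, V1rc13, V1rc15, V1rc27, V1rh11 and V1rh20.

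The groups gave similar totals when all 9 arrays of a group were asked for, and differed more when most arrays sufficed. On all 9 arrays of a group, 33 members were above noise in the occluded, 34 in the open and 33 in the normal group, and on most arrays (5 or more of 9) 51, 62 and 56 were. Of all 29922 probes, 25853, 26198 and 25539 were above noise on most arrays of these groups. No member was above noise on most arrays of 1 group and on none of another. Between arrays the count was less even, from 36 to 75 members. Both extremes came from normal replicate 2, where the array with 36 also had the highest noise limit, 24.1. Over replicates, between 41 (occluded 2) and 67 (normal 2) members were above noise on at least 2 of 3 arrays. The part of array brightness in the counts by group was not tested.

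The brightest V1R probes belong to members of 4 subfamilies, and their readings in the groups overlapped. Values from here on are normalized log2 intensities, 1 per biological replicate. V1rd4 (Vmn1r58) read 10.83 and 9.96 in occluded replicates 1 and 2, with replicate 3 between them, 10.88, 10.36 and 9.83 in the open and 10.78, 10.41 and 10.32 in the normal replicates. Replicate 1 was the highest in each group, and the groups overlapped throughout. V1re1 (Vmn1r229) read 9.21, 9.64 and 10.35 in the occluded, 9.47, 10.41 and 9.83 in the open and 9.85, 10.34 and 10.16 in the normal replicates. It was the least even of the 6 between arrays, with deposited intensities from 133 to 2295.

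V1rd11 (Vmn1r64) read 9.99, 9.31 and 9.83 in the occluded, 9.58, 9.73 and 9.44 in the open and 9.79, 9.83 and 9.14 in the normal replicates. V1rd17 (Vmn1r179) read 10.12, 8.89 and 9.87, then 10.08, 9.63 and 9.21, then 9.35, 9.78 and 9.35 in the same order of groups. Both belong to the V1rd subfamily, and for both the lowest and the highest occluded replicates enclosed all open values. V1rh13 (Vmn1r219) read 9.65, 8.75 and 9.30 in the occluded, 9.37, 9.10 and 8.81 in the open and 9.46, 9.36 and 9.12 in the normal replicates. V1rg11 (Vmn1r84) was the most even, with group means of 9.03 ± 0.25 (SD, n = 3), 9.12 ± 0.30 and 9.11 ± 0.14. For these 6 genes the differences between occluded and open lay within 0.17 of 0, with adjusted p = 1 in limma for each. Differences of this size were smaller than the spread between replicates of the occluded group in all 6.

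**Figure D3:**
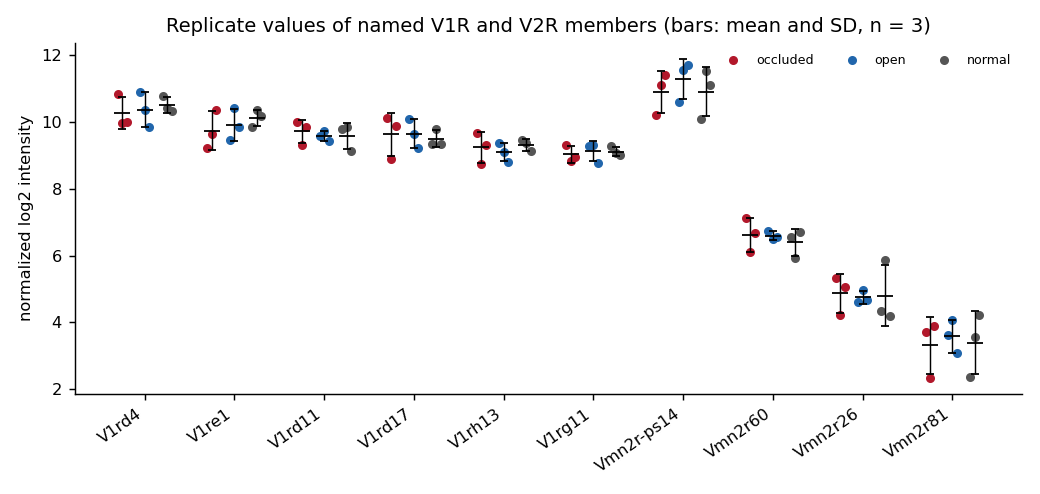
Normalized log2 intensity of 6 V1R and 4 V2R members in occluded (red), open (blue) and normal (grey) mucosa, with a point per biological replicate and black bars for the mean and SD (n = 3). The groups overlap for each gene, from Vmn2r-ps14 (10.09 to 11.71) to Vmn2r81 (2.34 to 4.23).

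Among the V2R members the brightest probe is named for a pseudogene. Vmn2r-ps14, listed by RefSeq as the pseudogene Gm21978, read 10.19, 11.11 and 11.40 in the occluded, 11.56 and 11.71 in open replicates 2 and 3, with a lower value in replicate 1 (open mean 11.29 ± 0.60, SD, n = 3), and 10.09, 11.51 and 11.11 in the normal replicates. Replicate 1 was the lowest in each group. Occluded and open differed by -0.39 ± 0.34 (SE; limma adjusted p = 0.99). Vmn2r60, the other V2R member above noise on every array, read 7.11, 6.09 and 6.66 in the occluded, 6.74, 6.48 and 6.56 in the open and 6.55, 5.93 and 6.70 in the normal replicates. Its difference of occluded from open was 0.03 ± 0.23.

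Vmn2r26, a receptor studied for its response to peptides, was above noise on 22 of 27 arrays. Its group means were 4.87 ± 0.58 (SD, n = 3) in the occluded, 4.75 ± 0.19 in the open and 4.80 ± 0.92 in the normal group. The 2 probes of Vmn2r26 disagreed. Its further probe, above noise on 17 arrays, differed by -0.70 between occluded and open (unadjusted p = 0.036 in limma), against 0.12 for the probe shown. Between occluded and normal these values were -0.61 and 0.07. Vmn2r81 was above noise on 15 arrays, 5 in each group. Of the measured members of family C, the partners of other V2R receptors, Vmn2r7 was above noise on 13 arrays, with 5 of 9 in the open group. The further probe of Vmn2r7 was above noise on 0 arrays. Vmn2r1, also known from neurons of the Grueneberg ganglion at the tip of the nose, was above noise on 1, and its further probe likewise on 1. No fold is given for Vmn2r1.

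A few V1R members with known ligands are added here, chosen after their values were seen. V1rb2, a receptor for the urine ketone 2-heptanone, was above noise on 10 arrays and V1rj2, a receptor for sulfated steroids, on 4. V1rj3, its close relative, was above noise on 24, 8 in each group. It read 5.48, 4.74 and 4.06 in the occluded, 6.08, 4.75 and 4.07 in the open and 5.59, 4.20 and 4.70 in the normal replicates. The groups overlapped, and replicate 1 was the highest in each.

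Probes of 1 gene often disagreed in brightness, and some also in how often they were read. Of the 10 members with more than 1 probe, 4 had all probes above noise on at least 14 arrays and 5 had none. V1ra2 was split, with probes above noise on 24, 21 and 0 arrays. Below the cut of 14, the probes of Vmn2r7 were above noise on 13 and 0 arrays and those of V1rc30 on 11 and 3. Both probes of V1rd4 were above noise on 27 arrays, with median intensities of 1349 and 218.

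The first comparison asked whether receptor readings differed between the occluded and the open side of the same mice, and no member passed. Of the 89, 0 reached an adjusted p of 0.05 in limma, where 66 of all 29922 probes (0.221%) did. At an unadjusted p under 0.05 there were 8 members (8.99%), 3 higher and 5 lower on the occluded side, against 6.19% of all probes (3.56% higher and 2.63% lower). This count was 2 without replicate 1, 17 without replicate 2 and 19 without replicate 3, and the smallest adjusted p of a member in limma was then 1, 0.076 and 0.084. The median log2 difference of the members was -0.01 and that of all probes 0.00, and 43 members lay above 0 and 46 below. The groups did not overlap for 3 higher members (3.37%, against 3.76% of all probes) and 4 lower ones (4.49%, against 2.94%).

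The members are described next by how often they exceeded noise. Of the 30 members above noise on every array, 0 had an unadjusted p under 0.05, against 4.42% of all probes read as well. Their differences lay between -0.39 and 0.42, with a median SE of 0.24. Of the 34 members above noise on 13 arrays or fewer, 5 (14.7%) had such a p, against 13.4% of all such probes. The smallest p of all members, 0.0021, was that of V1rd16 (limma adjusted p = 0.25), which was above noise on 2 of 27 arrays and gives no fold.

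Among members above noise on most arrays of either side, V1rg3 (Vmn1r80) had the smallest p. It read 3.39 and 4.79 in occluded replicates 1 and 2, with replicate 3 between them, 3.09, 3.11 and 3.14 in the open and 4.17, 4.21 and 4.61 in the normal replicates. The open replicates lay below all others. The difference of occluded from open was 0.95 ± 0.27 (limma adjusted p = 0.44), and it was -0.23 with the median of arrays a to c in place of their mean. It was 0.17 with intensities floored at 16 and 0.13 with 50 added to them before log2, and 0.58 without replicate 2. The next above 0 were V1re8 (0.38 ± 0.19, limma adjusted p = 0.87) and V1rb4 (0.44 ± 0.25, adjusted p = 0.91). V1re8 kept 0.38 with the floor at 16, while V1rb4 was 0.18 without replicate 1 and 0.77 without replicate 2.

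In the other direction the smallest p-values were those of V1re10, V1ri4 and V1rd6. V1ri4 (Vmn1r201) read 5.16, 3.83 and 4.84 in the occluded, 5.70, 5.76 and 5.34 in the open and 3.46, 4.79 and 4.55 in the normal replicates. The open replicates lay above all others, and 9 of 9 open arrays were above noise against 6 occluded and 5 normal ones. Its difference of occluded from open was -0.98 ± 0.35 (limma adjusted p = 0.65), with -0.78 under the floor at 16, -0.36 with 50 added and -0.51 without replicate 2. V1re10 differed by -0.63 ± 0.22 (adjusted p = 0.62) and V1rd6 by -0.97 ± 0.35 (adjusted p = 0.65), with 3 of 9 occluded arrays above noise for each. With the floor at 16 these differences were -0.06 and -0.20. V1rd6 was -0.25 with the median of arrays, -0.51 without replicate 2 and -1.59 without replicate 3, and V1re10 was -0.42 without replicate 3 and lay further below 0 without replicate 2. The sizes of these dim members' differences thus varied several-fold with the treatment of low values.

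**Figure D4:**
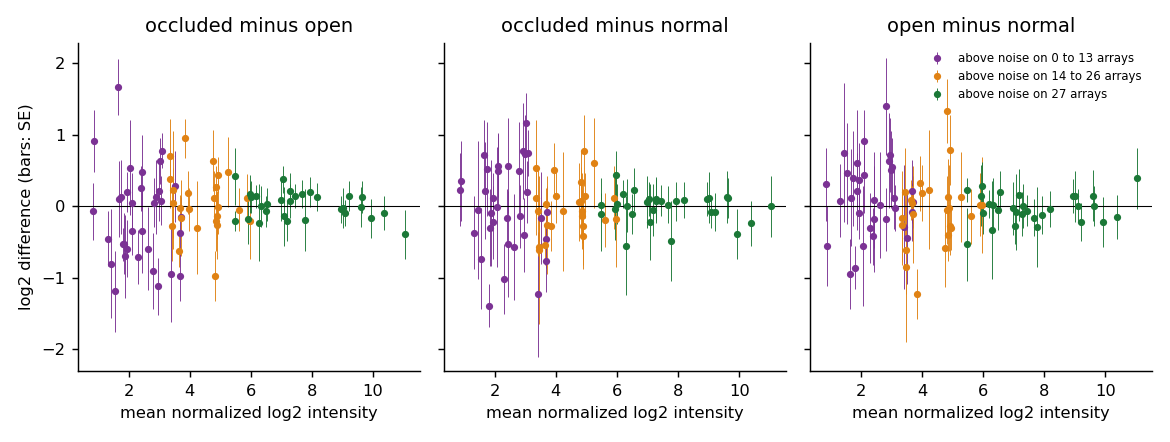
Log2 difference of each of the 89 members against its mean normalized log2 intensity in the 3 comparisons, with SE bars, coloured by the number of arrays above noise. Members above noise on 27 arrays (green) lie between -0.55 and 0.44, and the wider differences belong to dimly read members.

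Occluded mucosa was next compared with mucosa from sham-treated mice. Again 0 of 89 members passed, where 2 of all probes (0.00668%) did, and 3 members (3.37%) had an unadjusted p under 0.05, against 2.88% of all probes. Of these 2 were higher and 1 lower in the occluded group, where 1.62% and 1.25% of all probes were, and without replicate 2 there were 8. The median difference was 0.01, with 45 members above 0 and 44 below, and it was -0.20 without replicate 1 and 0.26 without replicate 2. The groups did not overlap for 1 higher member (1.12%, against 3.57%) and 3 lower ones (3.37%, against 3.09%). The smallest p-values among members read in either group were, above 0, those of V1ra2 (0.78 ± 0.49), V1rc33 (0.51 ± 0.38) and V1rd13 (0.44 ± 0.34), and V1rd13 was -0.07 without replicate 1. V1ra2 was 0.13 with the median of arrays and 0.33 to 1.21 with a replicate left out (1.21 without replicate 2), and its further probe above noise on 21 arrays gave -0.18. V1rc33 was 0.06 with the floor at 16. Below 0 they were those of V1re1 (-0.39 ± 0.35), V1rb1 (-0.45 ± 0.41) and V1rg9 (-0.41 ± 0.41), each of the 6 with adjusted p = 1 in limma. Without replicate 2 these 3 were -0.07, -0.12 and -0.10. With the floor at 16 they were -0.39, -0.20 and -0.23. V1rb1 was above noise on only 2 occluded and 5 normal arrays, so the size of its difference is uncertain. V1rc13 had the smallest p of all members (0.0012, adjusted p = 0.49) but was above noise on 0 of 27 arrays.

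The third comparison set the open side against normal mucosa. No member passed, as no probe of the array did (0%). An unadjusted p under 0.05 was found for 3 members (3.37%), against 1.59% of all probes. Of these 1 was higher and 2 lower on the open side, where 0.789% and 0.805% of all probes were, and without replicate 1 or replicate 3 there were 5. The median difference was 0.01, with 45 members above 0 and 44 below, and it was -0.16 without replicate 2 and 0.21 without replicate 3. The groups did not overlap for 2 higher (2.25%, against 2.06%) and 1 lower member (1.12%, against 2.21%). V1ri4 differed by 1.33 ± 0.45 and V1rg3 by -1.22 ± 0.35 (limma adjusted p = 1 for both), with the open values given above. V1ri4 was 0.99 with the floor at 16 and 0.81 without replicate 1, and V1rg3 was -0.28 with the median of arrays and -0.20 with the floor. These open replicates also enter the first comparison, so the pairs of values are not independent. V1rf3 lay above 0 but was above noise on 5 of 9 open arrays and 1 of 9 normal ones, so no size is given for it. V1ra2 (0.79 ± 0.49) lay above 0, turned to -0.02 with the median of arrays a to c, and its further probe gave -0.06. V1re8 (-0.28 ± 0.24) and V1re7 (-0.40 ± 0.37, and -0.02 without replicate 1) lay below.

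Genes that work with the receptors in vomeronasal neurons were read as well. Whether such neurons were in the mucosa used here was not tested. Of 20 listed genes of vomeronasal neurons and their signalling, 17 were measured, 9 were above noise on every array and 1, the formyl peptide receptor gene Fpr-rs3, on none. None passed in any comparison, and their median difference of occluded from open was 0.13, with 12 above 0 and 5 below. The channel gene Trpc2 read 8.40, 8.82 and 8.61 in the occluded, 7.81, 7.61 and 7.89 in the open and 8.27, 7.84 and 8.27 in the normal replicates. The occluded replicates lay above all others, and occluded and open differed by 0.84 ± 0.17 (limma adjusted p = 0.16). H2-M9, a class I MHC gene of V2R neurons, differed by 0.76 ± 0.21 (adjusted p = 0.41). The other H2-M genes above noise on most arrays differed by 0.08 (H2-M1), -0.37 (H2-M10.1), -0.14 (H2-M10.2), 0.31 (H2-M10.6) and 0.03 (H2-M11). Gng8 differed by -0.22, Meis2 by 0.19 and Tfap2e by 0.14. Trpc2 and H2-M9 thus had the largest differences above 0 in the list. Of the genes of mature olfactory neurons, 8 of 9 also lay above 0 in this comparison, with a median difference of 0.47 and none called, among them Ric8b (0.86), Cnga2 (0.53) and Gnal (0.47). Their mean log2 level was 14.18 to 14.52 in the occluded, 13.88 to 14.10 in the open and 13.81 to 14.07 in the normal replicates. Their part in the Trpc2 and H2-M9 values was not tested. Gnao1 and Gnai2, which other neurons and cells use too, differed by 0.13 ± 0.16 and -0.43 ± 0.30. In whole tissue, fewer neurons of a kind and less RNA per neuron cannot be told apart.

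Lipocalin genes of the glands around the vomeronasal organ and nasal septum varied widely between replicates. Lcn4 read 4.74, 15.81 and 11.03 in the occluded, 11.56, 13.28 and 14.79 in the open and 7.55, 15.98 and 11.89 in the normal replicates. In deposited units the median array of a replicate ranged from 20.6 in occluded 1 to 68171 in normal 2. Lcn4 was saturated on 3 arrays and Lcn3 on 6, so the highest readings are lower bounds. Lcn3 read 11.06 in occluded 1 and 15.99 in normal 2. Both genes were lowest in replicate 1 of each group. Occluded 2, with Lcn4 at 15.81, had the fewest receptors above noise (41), and normal 2, with Lcn4 at 15.98, had the most (67). The part of these glands in the receptor readings was not tested.

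**Figure D5:**
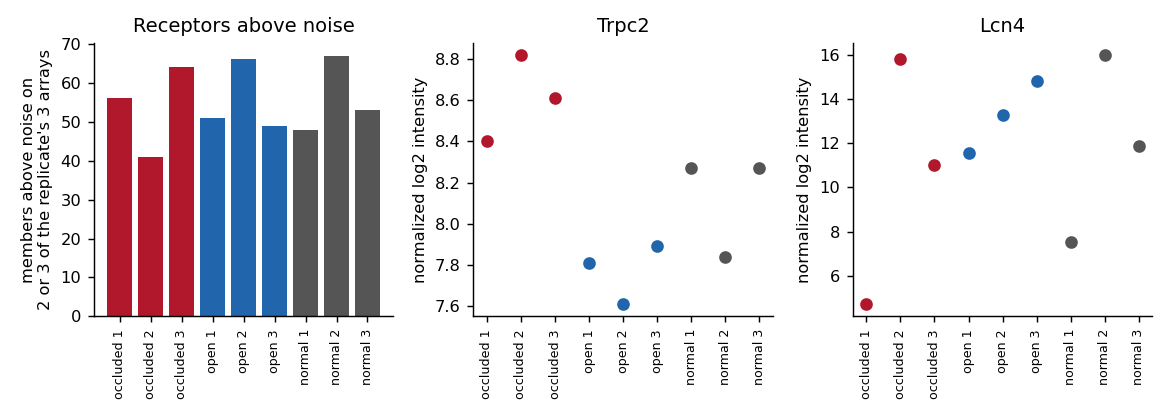
For each of the 9 biological replicates, the left plot gives the number of receptors above noise on at least 2 of 3 arrays, the middle one the normalized log2 intensity of Trpc2 and the right one that of Lcn4. Receptor counts run from 41 to 67 with overlapping groups, Trpc2 is highest in the occluded replicates, and Lcn4 spans 4.74 to 15.98.

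The stretch around the annotated gene start gave a further description of the members. RefSeq windows of 250 bases before and 50 after the start were found for 72 members. In 55 of them (76.4%) the annotated start coincides with a start codon, against 6.75% of all 27025 genes with a window, so for these members the window is the stretch before the coding sequence and not a mapped promoter. A and T made up 65.3% of the members' windows and 46.4% of all windows. The homeodomain core TAATTA, which reads the same on both strands, was in 11 member windows (15.3%) and in 5.31% of all windows. It was in 1 of 23 windows of members above noise on every array (V1rd4) and in 5 of 27 of those above noise on 13 arrays or fewer. The others with the core lay between, V1re10, V1rc7, V1rj3, V1re7 and V1rg7, above noise on 15, 18, 24, 25 and 26 arrays. A link between the core and the readings was not tested. The base composition differs between the sets compared, and a match is not a known binding site.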

How the data were processed

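Total RNA of olfactory mucosa was amplified, coupled to Cy5 and hybridised as 1 sample per array, per the labels' protocols. The authors deposited 1 linear intensity per probe and array. Scanner, background method and normalization were not given in the sources used here. Per array, 1.45% to 3.93% of probes had values of 0 or less. Values were floored at the lowest positive value (0.912), taken to log2, quantile normalized and averaged over arrays a to c, which gave 9 values. All 29922 probes were fitted in limma 3.58.1 (R 4.3.3, statmod 1.5.0) with a mean for each of the 3 groups. The individual entered as random block, with a consensus correlation of 0.389. Tests were two-sided, p-values were adjusted over all probes by Benjamini-Hochberg, and 0.05 was the threshold. Dim probes stayed in. The fit was tested on simulated data. Noise was judged on deposited values.

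Equal replicate numbers were read as 1 individual. Deviations from the group means correlated at 0.516, -0.00436 and 0.142 in the 3 occluded and open pairs, and equal-numbered samples of different mice at 0.353 (occluded 1 and normal 1) and 0.394 (open 1 and normal 1), so the values do not settle this pairing. Gene names are those of the array's annotation table, which names 21020 probes, and 84 members led to 1 current symbol in RefSeq (GRCm38.p6). The members and lists were chosen with earlier results of these data known. Named by rule were, in each family, the 6 brightest members above noise on 27 arrays (on at least 14 if fewer than 6), the 3 smallest p-values per direction and comparison among members above noise on most arrays of either group, measured members of V2R family C, and members read in 1 group and not in another. V1rd16, V1rc13, V1rb2, V1rj2, V1rj3 and the members of the sequence sets were named outside this rule, after their values were seen. A probe at 99.5% or more of an array's highest value was called saturated.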

Additional observations from a re-analysis of the deposited data

How the results depend on the processing

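In 40 alternative fits of the 3 comparisons, 0 members were called in each. The count with an unadjusted p under 0.05 did move. For occluded against open it was 8, and it became 4 without normalization between arrays, 4 with a floor at 16 before log2, 2 with an offset of 50, 0 with the dimmest 50% of probes dropped, and 5 with the number as a fixed replicate block; it was 2 without replicate 1, 17 without replicate 2 and 19 without replicate 3. For occluded against normal it was 3, and became 1 without normalization, 0 with the floor, 0 with the offset, 0 without the dimmest 50%, and 3 to 8 with a replicate left out (8 without replicate 2). For open against normal it was 3, and became 1 without normalization, 1 with the floor, 1 with the offset, 0 without the dimmest 50%, 0 with the median of arrays, 5 with the number as a fixed replicate block, and 3 to 5 with a replicate left out (5 without replicate 1 or 3). The median difference of occluded from open was -0.01, and -0.17 to 0.30 with a replicate left out (0.30 without replicate 2). The cause of these shifts was not tested. The number of members above noise was 30, and 55 where 14 of 27 arrays sufficed. It was 35 and 23 with limits of 2 and 5 times the root mean square, and 30 without the array of the highest noise limit, a setting chosen after seeing the data. Of 223 refits of named differences, 3 changed sign, V1rg3 to -0.23 and V1ra2 to -0.02 with the median of arrays and V1rd13 to -0.07 without replicate 1 (up to 0.74 without replicate 2), and 0 passed.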
